A study of Mus musculus with 2 samples.

Results

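Chemokines are small secreted proteins that direct the migration of cells, and they act through receptors with several membrane passes that couple to inhibitory G proteins. The genes described here are those of the chemokine ligands and of their receptors that the Affymetrix Mouse Genome 430 2.0 array measures. They were chosen by name: a probe set was taken where its only gene symbol in the array's annotation was that of a CC, CXC, XC or CX3C ligand, of a receptor for these ligands, or of an atypical receptor. This gave 85 probe sets of 53 genes out of 34958 probe sets and 18194 genes with 1 symbol, with 33 ligand genes and 20 receptor genes. Measured values did not enter this rule, though earlier results of these data were known when it was set.

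Total RNA of entire mouse embryos, wild type and at E14.5, with no treatment named, was hybridised to 2 arrays run as duplicates of 1 condition. The E14.5 embryos of the study belonged to the NMRI or the C57/BL6 strain, and which of them was used for the arrays is not given in the sources used here. Separate embryos are not stated for the duplicates either, and their spread may therefore be technical. The values are signal intensities on a linear scale, scaled to the same trimmed mean of 100 on both arrays, and the number of arrays limits their precision. With 1 condition there was no comparison between groups and no test.

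The ligands are named after the spacing of the first cysteines in the protein. Some are made steadily in tissues and guide cells during development, among them CXCL12, which leads germ cells, blood progenitors and migrating neurons through its receptor CXCR4. Many others, above all the CC and CXC ligands encoded in large gene clusters, are known as inflammatory chemokines and are switched on by signals of infection or injury. Atypical receptors bind chemokines without coupling to G proteins and take up or store them.

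Each signal was read against a background bound. For this, receptor genes of smell, pheromone sensing and bitter taste were assumed to be off in the embryo, and the bound of an array was the value that 95% of their 83 probe sets did not exceed, which came to 27.64 for array 1 and to 33.79 for array 2. To be called above background, a gene needed a probe set over the bound on each of the arrays, not always the same one. Signals of different probe sets depend on their oligonucleotides and are not set against each other here. Because the embryo was taken whole, few cells with much RNA and many cells with little cannot be told apart, and a signal does not place a transcript in a tissue. All 10 genes of a list of embryo tissues passed, among them Afp, Alb, Hbb-y and Myog. Of all genes of the array, weighted to like numbers of probe sets, 63.7% passed. Such calls do not show the stage or the genotype, which are taken from the labels.

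Of the 53 genes, 19 (35.8%) were above background on both arrays, 2 passed on 1 array only and 32 on neither. Over all genes of the array the share was 65.7%. The ligand genes passed in 12 of 33 cases and the receptor genes in 7 of 20. By class, 5 of 18 CC ligands, 6 of 13 CXC ligands, 2 of 9 CC receptors, 1 of 5 CXC receptors and 3 of 4 atypical receptors passed, and of the XC and CX3C genes 1 of 2 ligands and 1 of 2 receptors. Counted as probe sets, 24 of 85 (28.2%) lay above the bound on both arrays, against 49.2% of all probe sets of the array.

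**Figure D1:**
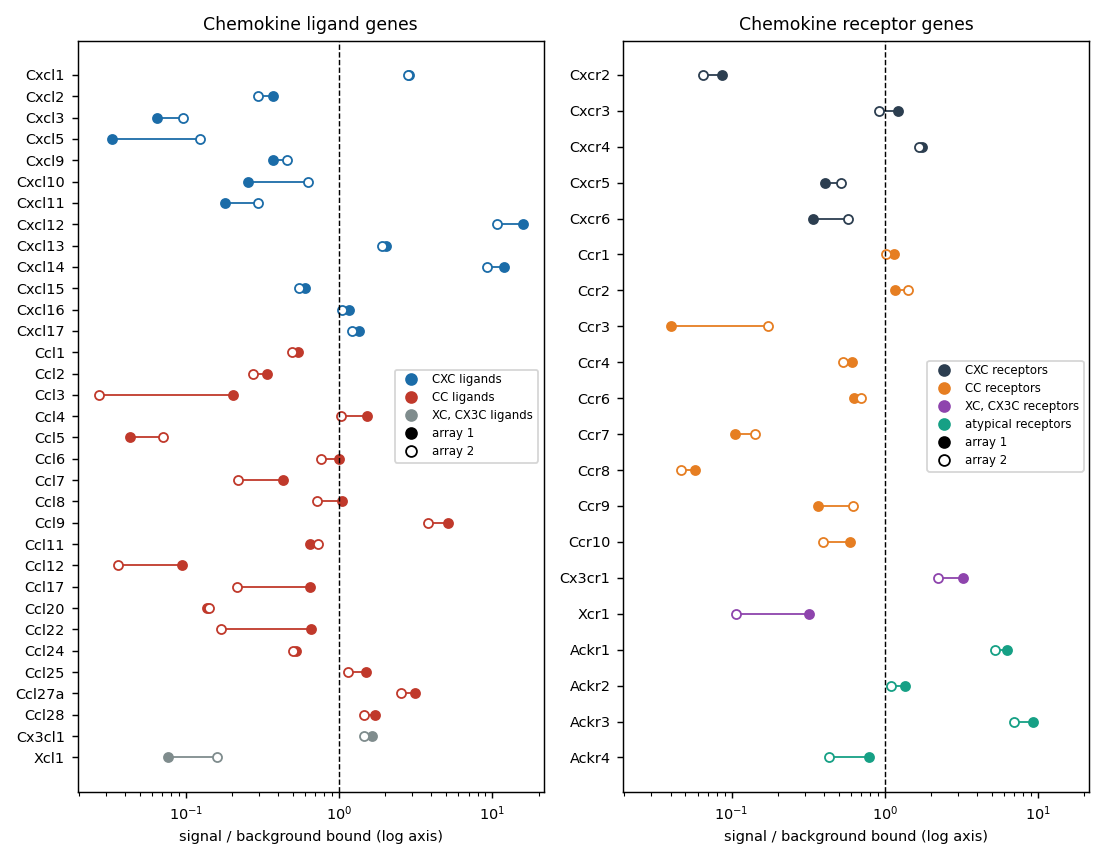
Signal over the bound of the same array (log axis), on array 1 (filled) and array 2 (open), with ligands on the left and receptors on the right, each gene by its probe set of highest mean signal. The dashed line is the bound, and 12 of 33 ligand genes and 7 of 20 receptor genes are beyond it on both.

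A gene with more probe sets has more chances to pass. Among genes with 1 probe set, 6 of 33 chemokine and receptor genes (18.2%) were above background, beside 48.7% of all genes of this kind. With 2 probe sets the tally was 7 of 12 beside 76.2%, with 3 it was 4 of 5 beside 87.4%, and with 4 or more it was 2 of 3 beside 93.7%. The share of the members was the lower one in each of these 4 classes, although the last 2 hold few members. These are descriptions of the arrays, and genes are not replicates.

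**Figure D2:**
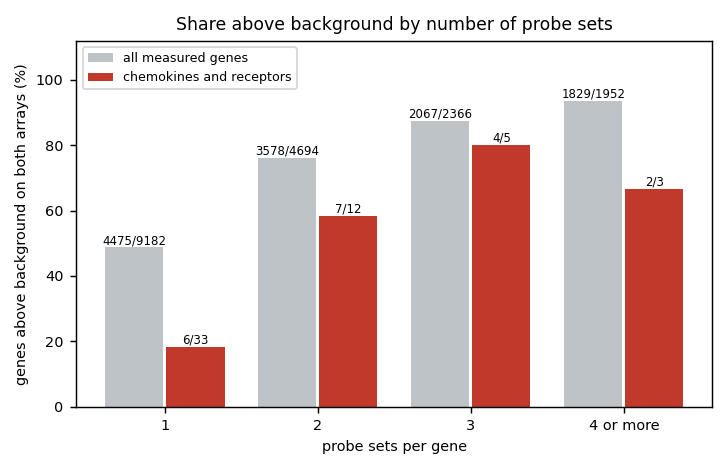
Percent of genes above background on both arrays, by the number of probe sets per gene, for all measured genes (grey) and for chemokines and receptors (red), with the numbers of genes over the bars. With 1 probe set per gene the bars stand at 48.7% and 18.2%.

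The control regions of 4 genes are printed as examples. They were picked by hand and do not stand for the members above or below the bound. For each gene the 250 bases before the transcription start are printed 5' to 3' from RefSeq on GRCm38.p6, for the ligand and receptor of the best known developmental pair, Cxcl12 and Cxcr4, and for the inflammatory ligands Cxcl10 and Cxcl2. Capitals mark the letters TATAAA and the NF-kB consensus on either strand.
Cxcl12 (chr6:117168285-117168534, plus strand): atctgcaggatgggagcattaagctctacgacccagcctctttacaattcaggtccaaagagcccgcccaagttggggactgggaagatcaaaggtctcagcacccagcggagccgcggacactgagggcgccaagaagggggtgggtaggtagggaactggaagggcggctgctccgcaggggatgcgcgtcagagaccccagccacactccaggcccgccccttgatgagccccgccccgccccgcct
Cxcr4 (chr1:128592300-128592549, minus strand): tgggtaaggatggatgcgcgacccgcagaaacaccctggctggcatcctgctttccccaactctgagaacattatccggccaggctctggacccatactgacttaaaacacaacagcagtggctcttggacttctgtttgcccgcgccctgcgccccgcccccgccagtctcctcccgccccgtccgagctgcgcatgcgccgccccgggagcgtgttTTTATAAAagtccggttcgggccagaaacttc
Cxcl10 (chr5:92348890-92349139, minus strand): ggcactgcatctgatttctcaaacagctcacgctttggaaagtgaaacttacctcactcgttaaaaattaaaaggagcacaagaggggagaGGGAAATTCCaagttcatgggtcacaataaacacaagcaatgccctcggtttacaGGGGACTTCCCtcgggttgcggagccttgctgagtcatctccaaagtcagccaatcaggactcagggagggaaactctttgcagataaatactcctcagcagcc
Cxcl2 (chr5:90903649-90903898, plus strand): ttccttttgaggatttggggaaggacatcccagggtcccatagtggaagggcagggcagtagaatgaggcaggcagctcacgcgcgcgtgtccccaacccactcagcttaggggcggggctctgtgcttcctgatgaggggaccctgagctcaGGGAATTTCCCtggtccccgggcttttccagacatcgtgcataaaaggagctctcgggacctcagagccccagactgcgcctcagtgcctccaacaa
Cxcl12 and Cxcr4 were above background, and Cxcl10 and Cxcl2 were not. The Cxcl12 window held neither motif, and that of Cxcr4 held TATAAA on both strands in 1 overlapping run near the start. Those of Cxcl10 and Cxcl2 held the NF-kB consensus only, with 3 and 2 matches, some of which overlap. Other members went the other way in the longer windows described next. The consensus was present in Cxcl1, Ccl9, Ccr1 and Ackr2, which passed, and absent from Ccl3, Ccl12, Ccl17 and Ccl22, which did not.

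Promoter windows of 250 bases before to 50 after the start were found for 40 of the 53 genes. Those without a window were Ccl4, Cxcl16 and Cxcl17, which passed, and others that did not. The others were Ccl2, Ccl5, Ccl7, Ccl11, Ccl24, Cxcl5, Cxcl11, Ccr7, Ccr10 and Cxcr5. TATAAA was present in 12 of the 40 (30%), beside 14.2% of the 27025 genes of the promoter table and 9.87% of the measured genes. The NF-kB consensus was present in 10 (25%), beside 8.18% and 9.75%. Over the 40 members together, neither motif set those above background apart. TATAAA occurred in 5 of 16 genes above and 7 of 24 below, and the NF-kB consensus in 4 of 16 and 6 of 24. For the NF-kB consensus the 2 roles ran in opposite directions, in small groups. Ligands had it in 2 of 9 genes above and 5 of 14 below, and receptors in 2 of 7 and 1 of 10. The windows held a median of 4 CpG dinucleotides, beside 7 over the promoter table and 17 over the measured genes. Within the family the median was 6.5 for genes above background and 3 for those below, and over all measured genes it was 21 and 6. The 2 medians were 11 and 3 for the ligands and 4 and 3 for the receptors. Cxcl12 held 20 CpG dinucleotides, Cxcr4 20, Cxcl14 22 and Ccl25 52, whereas Ccr1 and Ccr2, which also passed, held 1 each. A match of letters is no evidence of a bound factor.

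Of the CXC ligands, Cxcl12, Cxcl14, Cxcl13, Cxcl1, Cxcl16 and Cxcl17 were above background. Cxcl12, the ligand of CXCR4 and of the atypical receptor ACKR3, had signals of 434.8 on array 1 and 359.4 on array 2. A further probe set of the gene gave 181.8 and 138.2, and the last one lay far below the bound at 4.7 and 4.6. Cxcl12 was lower on array 2 in both probe sets that passed.

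Cxcl14, a chemokine made by epithelia and other tissues in the absence of inflammation, passed with both of its probe sets, at 329.2 and 309.3 and at 177.1 and 184.3. The arrays were close to each other for each of them. Cxcl13, which attracts B cells in lymphoid tissue through CXCR5, also passed with both, at 55.6 and 64.4 and, near the bound, at 33.0 and 36.9.

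Cxcl1, a ligand of CXCR2 that attracts neutrophils, rested on probe sets of a kind open to cross-hybridisation. Those gave 79.4 and 94.4, and 69.8 and 72.7. The remaining probe set of Cxcl1, which is not of that kind, had signals of 11.3 and 3.6. The probe sets of this gene therefore disagreed about its call.

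Cxcl16, a chemokine made as a membrane protein, was just over the bound at 32.0 and 35.1 in 1 probe set and under it at 15.0 and 17.3 in the other. Its gene overlaps Zmynd15 in the RefSeq annotation, and whether the probe set also binds that gene's transcripts was not tested. Cxcl17, a chemokine of mucosal surfaces, had 37.1 and 40.8. The 7 other CXC ligand genes were Cxcl2, Cxcl3 and Cxcl5, which attract neutrophils, Cxcl9, Cxcl10 and Cxcl11, which are induced by interferon and bind CXCR3, and the lung chemokine Cxcl15. Their signals ran from 0.9 to 26.5 and lay below the bound on both arrays in all probe sets. The interferon-induced Cxcl10 had 7.0 and 21.1, and Cxcl2 had 10.2 and 9.9. A probe set of Cxcl15 came close to the bound on array 1 only, at 26.5 against 7.7.

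Of the CC ligands, Ccl9, Ccl27a, Ccl28, Ccl25 and Ccl4 were above background. Ccl9, a ligand of CCR1, passed with both probe sets, at 141.5 and 128.3 and at 38.7 and 39.5. Ccl27a and Ccl28 encode chemokines of the skin and of mucosal epithelia that bind CCR10. Ccl27a had 86.7 and 85.6 through its only probe set with 1 symbol, which carries the mark of possible cross-hybridisation, and the gene overlaps Il11ra1 and has near-identical copies.

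The probe sets of Ccl28 were divided. The first had 47.3 and 49.0, the second passed only on array 2, at 15.1 and 37.7, and the third lay below the bound at 6.2 and 3.3. Ccl25, which recruits thymocyte precursors and gut lymphocytes through CCR9, had 41.3 and 38.4 in 1 probe set and 10.5 and 16.3 in the other. Ccl4, an inflammatory chemokine, had 42.1 and 34.7 through a single probe set, and the second value lay just over the bound. Its gene overlaps Ccl3 in the annotation, and the probe set of Ccl3 was at 5.6 and 0.9.

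Ccl8, an inflammatory chemokine, passed on array 1 only, at 28.6 against 24.2 on array 2. The 12 CC ligand genes below the bound on both arrays were Ccl1, Ccl2, Ccl3, Ccl5, Ccl6, Ccl7, Ccl11, Ccl12, Ccl17, Ccl20, Ccl22 and Ccl24, with signals from 0.9 to 27.5. The monocyte attractant Ccl2 had 9.3 and 9.2. Closest to the bound was Ccl6, a chemokine of myeloid cells, at 27.5 and 25.5 and at 26.9 and 17.0. Ccl11, the eotaxin gene, had 17.8 and 24.5.

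Cx3cl1 encodes fractalkine, a membrane-bound chemokine of neurons and endothelium, and Cx3cr1 its receptor on macrophages and microglia. Both genes were above background. Cx3cl1 passed through 1 of 4 probe sets, at 45.3 and 49.2, while the others ranged from 1.7 to 15.7. Cx3cr1 had 89.7 and 74.8 in 1 probe set and 10.5 and 6.6 in the other. The lymphotactin gene Xcl1 (2.1 and 5.4) and its receptor gene Xcr1 (8.9 and 3.6), a marker of dendritic cells, were both below the bound.

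The atypical receptors, a class of few genes, passed in 3 of 4 cases, beside 65.7% of all genes of the array. Ackr3, which binds and removes CXCL12, had signals of 257.0 and 237.0. Ackr1, the Duffy antigen of red cells and venous endothelium, had 172.1 and 177.0. Each of these rested on a single probe set, which for Ackr3 may read transcripts of other genes and for Ackr1 reads several variants, and Ackr1 overlaps Cadm3 in the annotation. Ackr2, a scavenger of inflammatory CC chemokines, passed near the bound with 37.6 and 37.2 in 1 of 3 probe sets, the others giving 21.4 and 31.1 and 1.0 and 1.4. Ackr4, which takes up CCL19, CCL21 and CCL25, was below it with all 3, the highest of which had 21.8 and 14.7.

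Among the receptors that signal, Cxcr4 had 48.5 and 56.7 through its only probe set. Ccr1, a receptor of monocytes and macrophages, was barely over the bound with 31.7 and 34.6, and its other probe set gave 9.6 and 6.1. Ccr2, the receptor for CCL2 on monocytes, had 4 probe sets. One had 32.1 and 47.8, a second passed on array 2 only with 27.1 and 44.5, and the rest were below the bound on both arrays, at 25.6 and 16.9 and at 1.4 and 8.7. The Ccr2 probe sets thus gave different calls, and both that passed on array 2 were lower on array 1.

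Cxcr3, the receptor of the interferon-induced CXC ligands, passed on array 1 at 33.9 but not on array 2 at 31.2. Receptors of lymphocytes, eosinophils and neutrophils made up most of the remaining genes. Ccr3, Ccr4, Ccr6, Ccr7, Ccr8, Ccr9 and Ccr10 ranged from 1.1 to 23.7, and Cxcr2, Cxcr5 and Cxcr6 from 0.3 to 19.3. Ccr9 was below the bound with all 5 of its probe sets. Ccr6, a receptor of lymphocytes and dendritic cells, had 17.4 and 23.7.

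**Figure D3:**
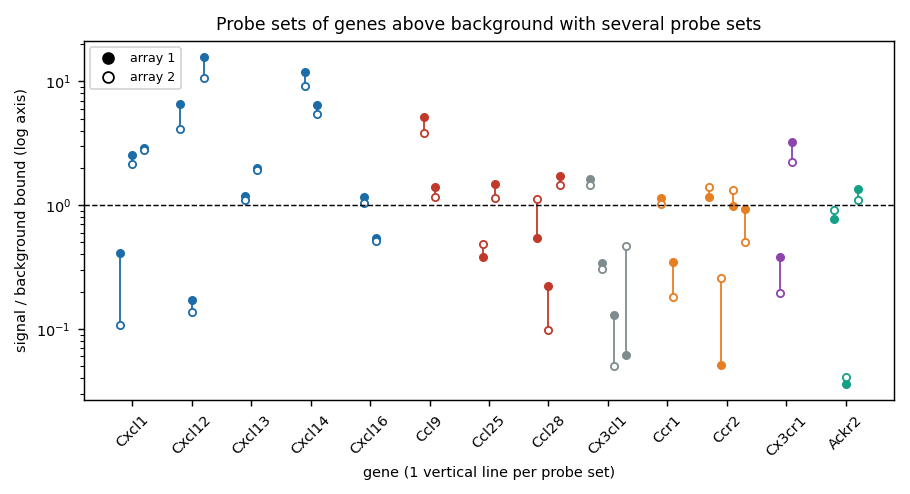
Signal divided by the bound of its array (log axis) for every probe set of the 13 genes above background that have several, with 1 vertical line per probe set, array 1 filled and array 2 open. In 10 of the 13 genes at least 1 probe set lies below the dashed bound on both arrays, and Cxcl13, Cxcl14 and Ccl9 have all of theirs above it.

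Of the 19 genes above background, 13 had several probe sets, and in 10 of these at least 1 probe set lay below the bound on both arrays. Probe sets of 1 gene can differ in the transcript ends or variants they read, and the reason for the disagreement was not tested. In 11 of the 19 genes the probe set with the highest mean reached less than 2 times the bound on 1 or both arrays. The 8 others were Cxcl12, Cxcl14, Cxcl1, Ccl9, Ccl27a, Cx3cr1, Ackr1 and Ackr3. Just inside the bound on their weaker array were Ccr1, Ccl4, Cxcl16, Ackr2 and Ccl25. Of the genes not called, Cxcr3 and Ccl8 were over the bound on array 1 and Ccl6 just under it. On array 2 they reached 0.923 (Cxcr3), 0.716 (Ccl8) and 0.755 (Ccl6) times the bound.

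Ligands and receptors were then read as pairs, from a chosen list of 45 known pairings of which 37 had both genes measured. The list does not hold every known pairing, and the counts depend on what it holds. Both partners were above background in 4: Cxcl12 with Cxcr4, Cxcl12 with Ackr3, Cx3cl1 with Cx3cr1, and Ccl9 with Ccr1. In 8 pairs only the ligand passed. These included Ccl25 without its receptors Ccr9 and Ackr4, Cxcl13 without Cxcr5, Cxcl16 without Cxcr6, Cxcl1 without Cxcr2, and Ccl27a and Ccl28 without Ccr10. In 11 pairs only the receptor passed, such as Ccr2 with the ligands Ccl2, Ccl7 and Ccl12 below the bound. Neither partner passed in 14, among them the 3 pairs of Cxcr3 and those of Ccr4. With 12 of 33 ligand genes and 7 of 20 receptor genes above background, some pairs would have both partners without any link between them. No expected number was worked out, so the counts are not read as a result about pairing. The pairs share genes and are not independent, and expression of both partners in whole embryos does not show that they meet.

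Position in the genome was read from the order of genes in the RefSeq annotation. Members with at most 3 other protein-coding genes between them were taken as a run, a limit set after the order and the signals were known. Only members were placed in runs. Family genes with other symbols, such as Pf4 and Ppbp, which both passed, were left out. So were those without a probe set of their own, such as Ccl19, the Ccl21 genes, Ccl26 and Ccl27b. A member taken as alone may therefore lie beside a family gene that was not counted. Of 22 ligand genes in runs, 4 passed (18.2%), and of 11 that stood alone, 8 (72.7%). Of all genes of the array, weighted to like numbers of probe sets, 58.8% and 65.8% passed. Ligand genes with 1 probe set made up 15 of the 22 and 5 of the 11, and of these 1 and 2 passed, so that the numbers of probe sets differ between the groups and few genes remain where they are alike. The run of Ccl2, Ccl7, Ccl11, Ccl12, Ccl8 and Ccl1 held no gene above background, nor did that of Cxcl9, Cxcl10 and Cxcl11. In the run of Ccl5, Ccl9, Ccl6, Ccl3 and Ccl4, 2 of 5 passed. In that of Cxcl5, Cxcl3, Cxcl15, Cxcl1 and Cxcl2, Cxcl1 was the only member to pass. The ligands that stood alone among the members and passed were Cxcl12, Cxcl13, Cxcl14, Cxcl16, Cxcl17, Ccl25, Ccl27a and Ccl28. Ccl20, Ccl24 and Xcl1 also stood alone in this sense and did not pass. Receptor genes passed in 3 of 8 cases in runs and in 4 of 12 alone, beside weighted shares of 70.3% and 55.2%.

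Probe sets with several symbols were not members but bear on the family. A probe set shared by the Ccl21 genes, ligands of CCR7 in lymphatic vessels and lymphoid tissue, had signals of 128.3 and 95.5 and so lay above the bound on both arrays. The 2 shared by Ccl27a, Ccl27b and predicted copies gave 124.9 and 142.8 and 93.2 and 141.4. The one that reads Ccl19 stayed below the bound, between 4.9 and 16. Ccl26 and Cxcr1 were not analysed here.

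Other genes of the pathway were read from fixed lists, which were set with earlier results of these data known. Beside each list stands the background share, that is the share of all genes that passed, weighted to the list's numbers of probe sets per gene, and a list near it is not set apart by its count. Of 20 measured genes of signal relay and receptor desensitisation, 18 passed (90%, background share 75.2%), among them the inhibitory G protein genes Gnai1, Gnai2 and Gnai3 and the G protein subunit gene Gnb1. Gnai2 had signals of 1933 and 1909. The exceptions were Pik3r5, a regulator of PI3 kinase gamma (19.5 and 29.5), and Rgs1, a brake on G protein signalling of lymphocytes (8.1 and 24.7). All 13 measured genes of chemokine cleavage, shedding and sulphation passed (background share 76.5%), including Dpp4, a protease that trims chemokines, Adam10 and Adam17, which shed CX3CL1 and CXCL16 from the membrane, and Mmp2. Dpp4 was close to the bound on array 1, at 28.4 and 44.6. Of 10 family members or partners with other symbols 9 passed (background share 68.2%). They included Pf4 (759.9 and 714.3) and Ppbp (322.7 and 304.9), CXC chemokines of platelets, and Mif and Cd74, a ligand and its receptor. Pitpnm3 (21.6 and 26.5) did not.

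Lists of cell types that carry chemokine receptors or make the ligands were read in the same way. Their background shares were 56.5% for macrophages, 51.8% for neutrophils and mast cells, 52.7% for megakaryocytes, 69.5% for blood progenitors and 52.2% for endothelium. Macrophage genes passed in 9 of 10 cases, with Csf1r at 1048 and 1044, Adgre1 at 193.4 and 193.9, and Cd68 also above the bound. Aif1 passed on array 1 only (30.3 and 33.4). Genes of neutrophils and mast cells passed in 8 of 9 cases, including Elane, Mpo, Prtn3 and Ctsg, with the mast cell protease gene Mcpt4 as the exception at 2.1 and 10.3. Megakaryocyte and platelet genes passed in 6 of 7, with Itga2b and Gp1bb beside Pf4 and Ppbp, and not Gp9 (35.6 and 20.7). The 8 genes of blood progenitors, with Kit, Cd34, Gata2 and Tal1, and the 8 of endothelium, with Pecam1, Cdh5, Kdr and Tek, all passed.

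Genes of lymphocytes were mostly below the bound, with background shares of 64.1% for the T and NK cell list and 60.5% for the B cell list. The shares were 60.7% for dendritic cells, 64.4% for Cajal-Retzius neurons, 52.7% for germ cells and 61.6% for placenta and decidua. In the T and NK cell list 2 of 9 passed, Cd8a (61.4 and 109.4) and Zap70 (114.1 and 64.3), while the T cell receptor subunits Cd3e, Cd3g and Cd3d and the coreceptor gene Cd4 had signals from 3.8 to 16.6 in the probe set with the highest mean. None of the 7 B cell genes passed on both arrays, with Cd79a, Cd79b and Ms4a1 below the bound on each and Pax5 (33.4 and 28.6) and Blnk (40.0 and 30.8) over it on array 1. Of the 7 dendritic cell genes, Zbtb46 and H2-Ab1 passed and Itgax and Xcr1 were below the bound, whereas Flt3 (32.6 and 14.9) and Siglech (28.1 and 8.7) passed on array 1 only and Batf3 (25.7 and 48.0) on array 2 only. In the list of Cajal-Retzius neurons, the Cxcr4-bearing first neurons of the cortical surface, 6 of 7 passed, with Reln, Trp73, Lhx1 and Calb2 but not Lhx5 (21.3 and 17.8). No germ cell gene of 7 passed, including Ddx4, Dazl, Dppa3 and Pou5f1. Of the placenta and decidua list 3 genes were measured and 1 passed, Psg23 (58.4 and 88.4), while Tpbpa (0.8 and 5.8) and Prl8a2 (8.9 and 21.0) did not. The part of each cell type in the signals of the chemokine genes was not tested.

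**Figure D4:**
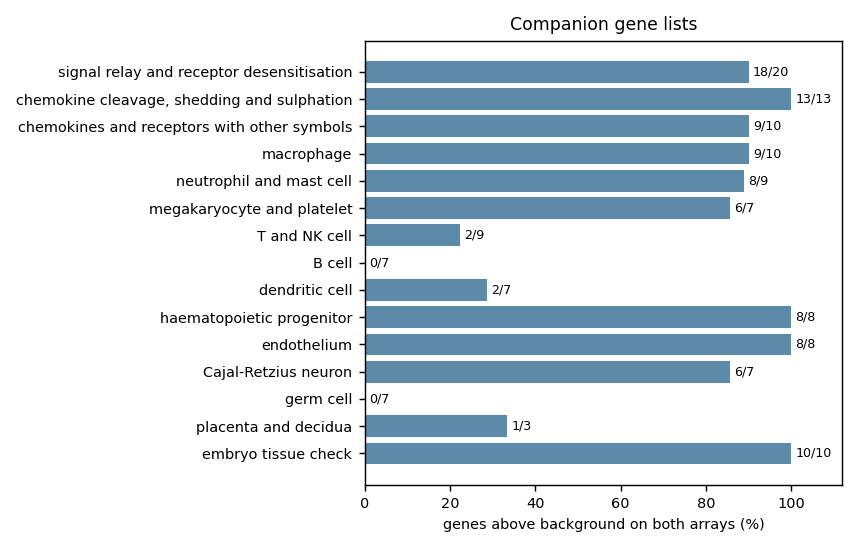
Percent of the measured genes of each fixed list above background on both arrays, with the numbers of genes beside the bars. Lists of macrophages, neutrophils and mast cells, megakaryocytes and blood progenitors reach 85.7% to 100%, and those of B cells and germ cells stand at 0.

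The spread between the duplicate arrays was read from the member probe sets above the bound on both, a choice that leaves out probe sets that passed on 1 array only. Log2 signals of array 1 were subtracted from those of array 2 and centred on the median of all probe sets above the bound on both arrays. The 24 member probe sets above it had a median difference of 0.04, with a range from -0.41 to 0.56 and an SD of 0.21, and the SD over all 22203 such probe sets was 0.26. Every one of the 24 lay within 1.5-fold, beside 96.2% of all, and none differed by more than 2-fold, beside 0.293% of all. Before centring, 1 of the 4 member probe sets that passed on 1 array differed by more than 2-fold, that of Ccl28 at 15.1 and 37.7, as did 18 of the 57 below the bound on both arrays. The differences of the 24 ran in both directions, with 14 probe sets higher on array 2 and 10 lower. The widest were those of Ccr2 at 0.56 and of the weaker Cxcl12 probe set at -0.41, and those of Ccl27a, Ackr2 and Ackr1 lay at -0.03, -0.03 and 0.03.

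**Figure D5:**
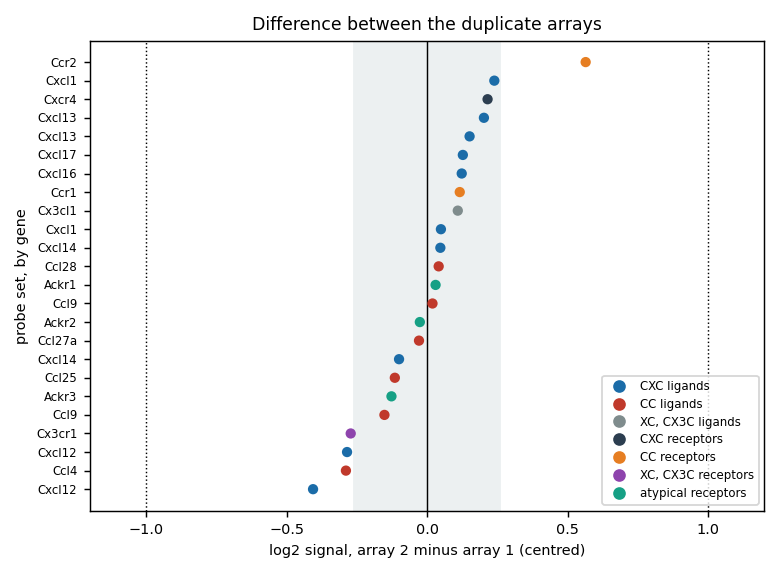
Centred log2 difference of signal, array 2 minus array 1, for the 24 probe sets above background, in order of size and named by gene, with genes of several such probe sets on several lines. The grey band is 1 SD (0.26) of all probe sets above the bound, the dotted lines mark 2-fold, and all 24 lie between them.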

How the data were processed

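Total RNA of whole wild-type embryos at E14.5, isolated with RNAzol, was labelled with biotin and hybridised by the authors to duplicate Affymetrix Mouse Genome 430 2.0 arrays. Scans were processed with GCOS 1.3, per the submitters' processing notes. The deposited values are signal intensities, 1 per probe set and array, on a linear scale and scaled to a mean of 100 after trimming of 2% at each end. The methods' detection calls were not used here.

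Probe sets were named from the platform annotation. Symbols of all other genes were updated through gene identifiers of the RefSeq table of GRCm38.p6, which listed 34754 of 34958. List genes are given by their probe set of highest mean signal. Every member is named, as are the first 4 measured genes of each list and its exceptions where these are 5 or fewer. Other list genes are examples chosen after their values were seen. Members, lists and alternatives were chosen with earlier results of these data known. Of 148 list entries, 135 were measured. Motifs were searched on both strands with 1 window per gene.

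The alternatives for calls were other bounds, other rules for several probe sets, removal of probe sets marked as reading several transcripts (suffixes _s, _x and _a, the last of which reads variants of 1 gene), and each array alone. For the differences they were no centring, quantile normalization and no filter with a pseudocount of 16. Of the steps, only the calls above background and the differences between the arrays were tested on simulated arrays. The simulated expressed genes lay mostly far above the bound, so calls close to it were hardly tested. Python 3.11.15, pandas 2.3.3, numpy 2.4.6 and matplotlib 3.10.9 were used.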

Additional observations from a re-analysis of the deposited data

How the results depend on the processing

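With the bound raised to the 99th percentile (33.81 and 41.2), the genes above background fell from 19 to 12 and the receptor genes from 7 to 4, since Ackr2, Ccl25, Ccl4, Ccr1, Ccr2, Cxcl16 and Cxcl17 no longer passed. The ligand genes were then 8 and the pairs 3. Under the other alternatives the number of genes ran from 15 to 21, and each was within 1.5 times of 19. Without probe sets marked as reading several transcripts Ackr1, Ackr3 and Ccl27a had no probe set left and Cxcl1 was below the bound. With array 1 alone Ccl8 and Cxcr3 passed as well, giving 21, and with array 2 alone the count was 19. Cxcr3 also passed with the 90th percentile. Cxcl12, Cxcl13, Cxcl14, Cxcr4, Cx3cl1, Cx3cr1, Ccl9 and Ccl28, 8 genes in all, passed under every alternative run. No probe set had several symbols all of the family, and updated symbols named the same 53 genes, so these alternatives left the counts as they were. Of 56 tallies of classes 50 were within 1.5 times of the main value, and of 120 tallies of lists 111. The median difference between the arrays lay between -0.03 (quantile normalization) and 0.05 (no centring), and no member probe set that the 5 alternatives kept differed by more than 2-fold. Of these, 4 kept at most 24 of the 85, and the one that kept all 85 used a pseudocount of 16, which shrinks the folds of low signals.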
